A study of Mus musculus with 25 samples.

Results

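Lungs of mice labelled FP-KO, taken at Day 7 of a bleomycin course, were compared with FP-KO lungs of Day 0, to describe across all measured genes the injury response of mice that lack FP, the receptor for prostaglandin F (gene symbol Ptgfr). The 8 arrays, 4 mice on each day, were taken by genotype and day from the 25 arrays of the series. The other arrays were from wild-type (WT) mice on Days 0, 7 and 14 and from FP-KO mice on Day 14. The mice were female, and each array carried biotin-labelled cRNA made from 6 ug of total RNA of 1 lung sample. Every group shares the bleomycin statement of the labels, 1 mg/kg in 40 ul saline instilled on Day 0, and the Day 0 samples are described there as baseline. How the FP allele was made, the mouse strain and the age of the mice are not given in the sources used here. No saline-instilled group was analysed here, so bleomycin, time and handling cannot be told apart. Nothing in the labels ties a Day 0 mouse to a Day 7 mouse beyond a shared number. The p-values rest on the spread between samples within the 6 groups of the series.

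Bleomycin is a DNA-breaking drug that injures the alveolar epithelium and endothelium of the mouse lung. In the first week, monocytes enter the lung and become macrophages, damaged epithelium spreads through a keratin-rich transitional state, and fibroblasts begin to lay down collagen-rich matrix. FP is a G protein-coupled receptor that signals when prostaglandin F2-alpha binds it, and the study set FP-KO against WT mice in this model of pulmonary fibrosis.

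Values are linear array intensities, called here the signal, and changes are log2 differences, Day 7 minus Day 0, after quantile normalization, each ± its standard error with 4 mice against 4. A gene is said to have risen or fallen where its change had a Benjamini-Hochberg adjusted p under 0.05 in limma over 12062 genes. Array medians of all 25 arrays lay between 112.3 and 151.5, the lowest being FP-KO Day 7 mouse No.2. A control probe for 18S ribosomal RNA differed more, from 308.9 to 6648.1 on the FP-KO Day 0 arrays and from 240.5 to 1112.3 on the Day 7 arrays. The ratio of 3' to 5' signal for actin, a check of RNA integrity, was 1.31 to 1.55 on Day 0 and 1.18 to 1.35 on Day 7. The part of RNA quality in the results was not tested. Surfactant protein C (Sftpc), the defining product of alveolar type 2 cells, had a high signal in every lung, 35590 ± 1340 (SD, n = 4) on Day 0 and 34521 ± 3961 on Day 7.

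Ptgfr itself was low in every FP-KO lung. Its signal was 56.9, 33.9, 57.6 and 34.4 in the 4 Day 0 mice and 41.6, 41.3, 44.0 and 45.9 in the 4 Day 7 mice. In WT lungs it was 258.6, 308.4, 383.7 and 265.4 on Day 0, and 140.0, 122.6, 229.2 and 200.1 on Day 7. No FP-KO mouse overlapped a WT mouse. The FP-KO change was 0.07 ± 0.24 (adjusted p = 0.854; -0.035 without quantile normalization) and the WT change -0.83 ± 0.24. Whether the probe lies in the deleted stretch is not known from the sources used here.

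By Day 7, 2814 of the 12062 genes (23.3%) had changed in FP-KO lung, 1523 upward (12.6%) and 1291 downward (10.7%). The rises were the larger changes. With 1 probe set per gene, a log2 change of 1 or more was reached by 321 of the rises (2.66% of all genes) and 38 of the falls (0.315%). A change of 2 or more was reached by 55 rises and no fall. The median change over all genes was 0.0024. The groups did not overlap in 3193 genes (26.5%). The balance of rises and falls depended on the scaling: 54.1% of the changed genes rose after quantile normalization, and 71.0% when the arrays were set to a common median, where 599 genes fell. Leaving out FP-KO Day 7 No.1 reduced the changed genes from 2814 to 1861 and the falls to 801. Leaving out Day 7 No.2 reduced the rises to 1008. The number of genes that fell by at least 1 was 74 without Day 7 No.4. Among the gene lists described below, 42 of the 59 list counts of 1 to 5 moved by over 1.5 times when 1 mouse was left out, and such small counts are given with that limit. Of the 27 larger counts 6 did so, and each of these is given with its value. Every list count is to be read beside the shares over all genes, 12.6% upward and 10.7% downward.

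The largest rises and falls named here were taken only among changed genes whose groups did not overlap. Lack of overlap in them thus follows from the choice. The gene with the largest rise was Trem2, a lipid-sensing receptor of macrophages. Its signal was 18.4, 27.8, 24.5 and 23 on Day 0, and 696.6, 654.6, 394.0 and 374.6 on Day 7. All Day 7 mice lay far above all Day 0 mice, and mice No.1 and No.2 were higher than No.3 and No.4. The change was 4.39 ± 0.53 (adjusted p = 9.93e-06), but 2 of the Day 0 values were raised to the floor, and the change was 3.54 with a higher floor and 2.29 over the mean of its probe sets. Saa3, an acute-phase serum amyloid made in many tissues, came next. Its signal was 216.4, 412.1, 262.4 and 436.5 on Day 0, and 3786.5, 3150.1, 10139.7 and 7014.2 on Day 7. For Saa3 the order of the Day 7 mice was the other way round, with No.3 and No.4 highest, and the groups did not overlap (4.04 ± 0.38, adjusted p = 6.79e-07).

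Timp1, an inhibitor of matrix metalloproteinases, read 431.7, 437.3, 361.4 and 344.2 on Day 0, and 4686.5, 4603.8, 4124.3 and 2216.2 on Day 7. Tnc, which encodes the injury-induced matrix protein tenascin-C, read 319.8, 324.1, 239.8 and 175.4 on Day 0, and 2882.6, 2137.0, 2799.3 and 1226.6 on Day 7. Sprr1a, a cornified-envelope protein of stressed epithelium, read 43.6, 78.3, 95.2 and 85.9 on Day 0, and 1179.6, 1336.0, 886.6 and 484.3 on Day 7. In all 3 genes the Day 7 mice stood clear of the Day 0 mice, as the choice required, and mouse No.4 was the lowest of the Day 7 mice. The changes were 3.23 ± 0.28 for Timp1, 3.09 ± 0.39 for Tnc and 3.72 ± 0.42 for Sprr1a.

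The other leading rises were Chl1 (3.79 ± 0.37), a neural adhesion molecule, the monocyte attractant Ccl2 (3.33 ± 0.30), the interferon-induced chemokines Cxcl9 (3.07 ± 0.47) and Cxcl10 (2.89 ± 0.26), arginase 1 (Arg1, 2.91 ± 0.53) and Rgs16 (2.74 ± 0.33), which shortens G protein signals. A gene with a clone-type symbol completed the 12. Each had an adjusted p of 0.000496 or less in limma. Other probe sets read smaller changes for several of these genes. They were 1.41, 0.26 and 0.14 for Chl1, 0.99 for Cxcl9, 1.75 and 0.87 for Rgs16, 2.01 for Tnc and 0.19 for Trem2. Those of Chl1, Rgs16 and Tnc had Day 0 mean signals of 7.5 to 22.7, under the intensity floor of 24.3. On Day 7 the Chl1 probe sets that read 0.26 and 0.14 were still at 25.3 and 15.8. The Trem2 probe set went from 29.3 to 38.6, near the floor. The floor limits the change that such dim probe sets can show, so they cannot decide the size of these rises.

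The largest falls were smaller than the largest rises. Igfbp3, which binds insulin-like growth factors, read 918.7, 1252.2, 977.8 and 846.8 on Day 0, and 225.7, 179.2, 276.5 and 586.3 on Day 7 (-1.72 ± 0.32, adjusted p = 0.000521). Gata3, a transcription factor of several lymphoid and epithelial lineages, read 209.9, 128.2, 169.9 and 213.1 on Day 0, and 83.8, 68.0, 59.2 and 54.2 on Day 7 (-1.36 ± 0.35, adjusted p = 0.00721; 0.0798 without both Day 7 No.3 and No.4). For both genes every Day 7 mouse was below every Day 0 mouse, as the choice required. For Igfbp3 mouse No.4 was the highest of the Day 7 mice. Ankrd63 (-1.64 ± 0.21), Hpcal4, a neuronal calcium sensor (-1.34 ± 0.36), Acaa1b, a peroxisomal thiolase (-1.30 ± 0.32), Bex2 (-1.29 ± 0.25) and Tbc1d30 (-1.25 ± 0.19) also fell. Rasd2, a small GTPase, fell by 1.88 ± 0.36, but its other probe set read 0.32 ± 0.44, and the other probe set of Tbc1d30 read -0.44. The other probe set of Igfbp3 read a larger fall than the one used, -2.34 ± 0.37.

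Fabp1, a fatty acid binding protein counted here among alveolar macrophage markers, read 755.5, 769.4, 886.4 and 560.3 on Day 0, and 176.2, 229.9, 299.5 and 475.2 on Day 7 (-1.36 ± 0.39, adjusted p = 0.0152). Its call was lost without Day 7 No.1 (-1.12, adjusted p = 0.0659). That of Cd300lg, an endothelial mucin receptor (-1.35 ± 0.37), was lost without Day 7 No.2 (-1.03, adjusted p = 0.0575). The remaining pair of the 12 have clone-type symbols and are not described.

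**Figure D1:**
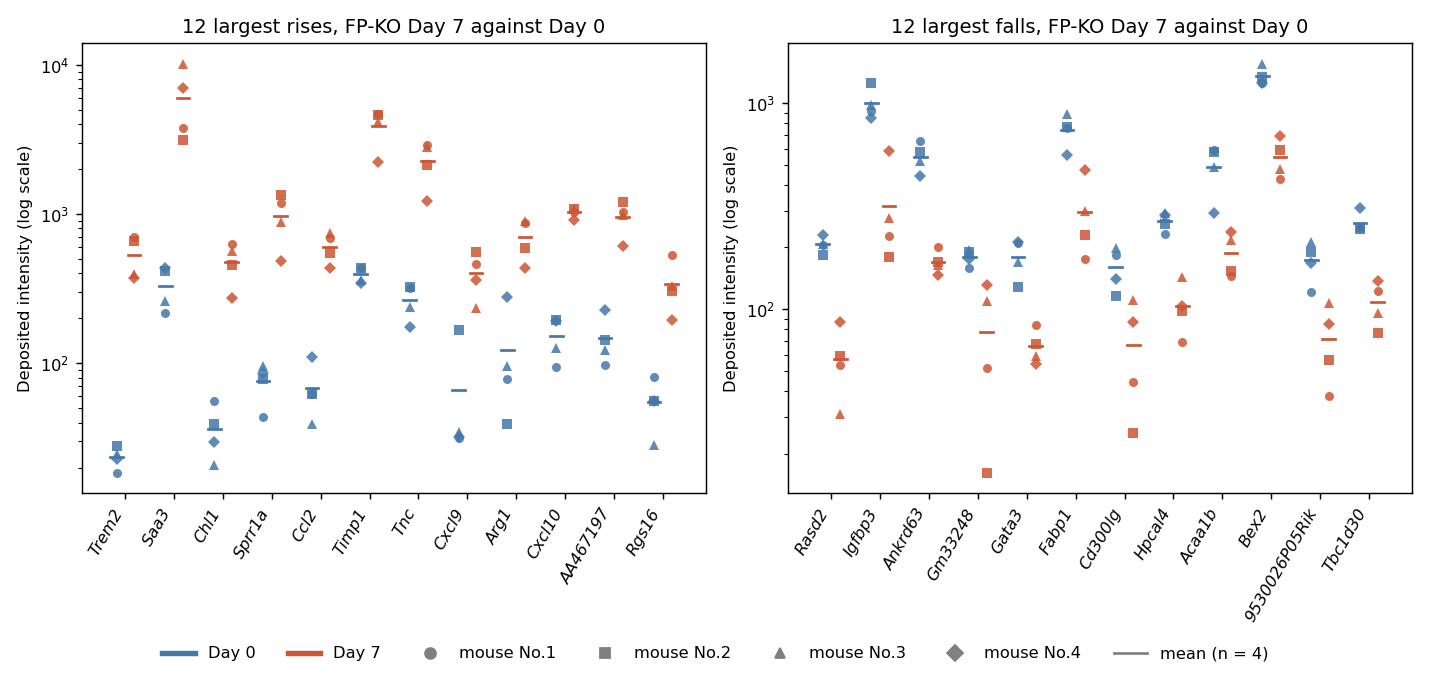
Deposited intensity (log axis) of the 12 genes with the largest rises and the 12 with the largest falls that passed and did not overlap, in each of the 4 FP-KO Day 0 mice (blue) and 4 FP-KO Day 7 mice (orange), with mouse numbers as symbols and group means as bars. Trem2 goes from 18.4 to 27.8 on Day 0 to 374.6 to 696.6 on Day 7, while Igfbp3 goes from 846.8 to 1252.2 down to 179.2 to 586.3.

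Genes of cell division had the largest share of rising members of all the lists. All 27 of the mitosis genes tested rose, with a median change of 1.78, and 22 of 23 DNA replication genes rose, with a median of 1.04, beside 12.6% and 0.0024 over all genes. Cdk1, the kinase that starts mitosis, read 289.8, 259.8, 163.0 and 198.4 on Day 0, and 1548.4, 1783.3, 978.0 and 748.8 on Day 7 (2.48 ± 0.31, adjusted p = 1.26e-05). Ube2c, which loads ubiquitin onto mitotic cyclins, read 383.2, 280.6, 194.1 and 268.9 on Day 0, and 1193.1, 1743.7, 862.8 and 718.1 on Day 7 (2.00 ± 0.24). In both genes Day 7 mice No.1 and No.2 were above No.3 and No.4, no Day 7 mouse overlapped Day 0, and on Day 0 mouse No.3 was the lowest. The kinesin Kif20a rose by 2.33 ± 0.30, cyclin A2 (Ccna2) by 2.14 ± 0.31, the ribonucleotide reductase subunit Rrm2 by 2.04 ± 0.28, thymidine kinase (Tk1) by 2.03 ± 0.30 and the replication factor Gins1 by 1.48 ± 0.19.

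The promoters of mitotic genes are known for CCAAT boxes and for a short element with the letters TTTGAA. Windows of 250 bases before to 50 bases after the start site were taken from RefSeq (GRCm38.p6) for 23 of the 27 mitosis genes. CCAAT was found on either strand in 20 of their 24 windows (83.3%), against 37.41% of 32851 windows of the whole genome. TTTGAA was found in 18 of the 24 (75.0%), against 17.89% of all windows. The 3 windows below belong to the genes with the largest rises among those that held CCAAT. Capitals mark CCAAT or its reverse complement ATTGG, which overlap at 1 place in Ube2c. The motif is shown because it was shared by most genes of the list.
Cdk1, chr10:69352863-69353162, minus strand: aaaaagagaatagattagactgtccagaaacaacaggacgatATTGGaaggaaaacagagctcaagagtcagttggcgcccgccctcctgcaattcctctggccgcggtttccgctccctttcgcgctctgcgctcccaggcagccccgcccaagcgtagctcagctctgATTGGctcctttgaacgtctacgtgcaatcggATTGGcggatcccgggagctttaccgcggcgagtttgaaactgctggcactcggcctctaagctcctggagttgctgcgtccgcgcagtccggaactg
Ube2c, chr2:164769679-164769978, plus strand: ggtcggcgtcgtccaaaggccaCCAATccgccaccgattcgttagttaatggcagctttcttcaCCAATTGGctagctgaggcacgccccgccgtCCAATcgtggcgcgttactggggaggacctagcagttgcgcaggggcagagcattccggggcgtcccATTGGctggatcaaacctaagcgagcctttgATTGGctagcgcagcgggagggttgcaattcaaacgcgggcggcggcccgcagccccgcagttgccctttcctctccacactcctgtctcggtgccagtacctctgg
Aurka, chr2:172370521-172370820, minus strand: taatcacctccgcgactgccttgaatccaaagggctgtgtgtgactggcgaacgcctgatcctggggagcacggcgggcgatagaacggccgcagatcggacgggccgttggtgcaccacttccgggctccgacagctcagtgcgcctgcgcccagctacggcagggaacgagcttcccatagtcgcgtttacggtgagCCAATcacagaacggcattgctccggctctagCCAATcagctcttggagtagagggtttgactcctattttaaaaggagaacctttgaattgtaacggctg
Aurka, a kinase of the spindle poles, rose by 1.98. A match is a description of the sequence only.

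Targets of p53, the transcription factor activated by DNA damage, rose in 7 of 15 cases and fell in none (median 0.46). Cdkn1a, the p53-induced brake on cyclin-dependent kinases, read 946.2, 1309.5, 784.0 and 624.0 on Day 0, and 3966.8, 4634.2, 3060.5 and 2933.8 on Day 7 (1.98 ± 0.31, adjusted p = 0.000129). Ccng1, another direct target, read 2864.5, 2293.2, 2423.8 and 2281.5 on Day 0, and 8482.4, 8759.0, 6564.7 and 5703.6 on Day 7 (1.49 ± 0.18). Both stood clear of Day 0 in every Day 7 mouse. Eda2r, a death-domain receptor, rose by 1.46 ± 0.26 and the nuclease Aen by 0.83 ± 0.14. Mdm2, which degrades p53 and is also its target, did not pass (0.17 ± 0.14). Of 14 immediate-early and heat-shock genes, 3 rose: Myc, a growth-promoting transcription factor (1.47 ± 0.17), Egr2 (1.29 ± 0.22) and the heat-shock gene Hspa1b (0.87 ± 0.27). Hspa1b lost its call without Day 0 No.2 (0.65, adjusted p = 0.101), Day 7 No.2 (0.88, adjusted p = 0.0519) or Day 7 No.4 (0.71, adjusted p = 0.0724).

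Chemokine and acute-phase genes rose broadly. Of 17 CC chemokines and receptors, 12 rose and 2, Cx3cl1 and Ccl5, fell (median 1.20). Ccl2 read 62.3, 62.1, 39.1 and 109.7 on Day 0, and 689.8, 551.8, 746.1 and 434.5 on Day 7. Ccl7, a related monocyte attractant, rose by 2.73 ± 0.36. Ccl17, which draws CCR4-bearing T cells, rose by 2.21 ± 0.36, and Ccl9 by 2.20 ± 0.33. Cx3cl1, a membrane-bound chemokine, read 685.7, 575.9, 700.0 and 646.3 on Day 0, and 364.5, 262.5, 419.3 and 431.1 on Day 7, and fell by 0.78 ± 0.15. All Day 7 mice were below all Day 0 mice for Cx3cl1, against the direction of most of the list.

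Among interleukins, related cytokines and CXC chemokines, 9 of 18 genes tested rose and none fell (median 0.40). No TNF-family ligand was among the 18. Cxcl13, the B-cell attractant, rose by 2.21 ± 0.28, interleukin 6 (Il6) by 1.85 ± 0.37, the decoy receptor Il1r2 by 1.74 ± 0.33 and the neutrophil attractant Cxcl2 by 1.63 ± 0.40. Il1b (-0.03 ± 0.27) and Cxcl1 (0.19 ± 0.25), named after their values were seen, did not pass. In the acute-phase and complement list 12 of 20 genes rose and none fell (median 0.64). Lipocalin 2 (Lcn2), which traps bacterial siderophores, read 3421.8, 3644.7, 3592.8 and 3490.0 on Day 0, and 10076.5, 11509.8, 14478.6 and 12735.7 on Day 7 (1.66 ± 0.17). The antiprotease Serpina3n rose by 2.02 ± 0.22, and the complement subunits C1qb and C1qc by 1.92 ± 0.27 and 1.89 ± 0.24. In the list of metallothionein, iron and glucocorticoid-responsive genes 5 of 15 rose and 2 fell (median 0.18), with 3 rises without Day 0 No.4. The metallothioneins Mt2 and Mt1 rose by 1.83 ± 0.35 and 1.13 ± 0.23 and the zinc importer Slc39a14 by 1.46 ± 0.21. The iron regulator Hamp changed by -0.79 ± 0.25 (adjusted p = 0.0257), a call lost without Day 0 No.1 (0.0544) or No.4 (0.0983), or Day 7 No.1 (0.0891), No.2 (0.0563) or No.4 (0.0539).

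Interferon-stimulated genes rose in 12 of 20 cases, and Irf1 alone fell (median 0.63). The nucleic acid sensor Zbp1 rose by 1.45 ± 0.26 and the antiviral GTPase Mx1 by 1.20 ± 0.26. Irf1, an interferon-induced transcription factor, changed by -0.33 ± 0.11, a call lost under a common array median (-0.23, adjusted p = 0.141). It was also lost without Day 0 No.1 (adjusted p = 0.0502), No.2 (0.111) or No.4 (0.0879), and without Day 7 No.1 (0.115) or No.2 (0.148). The recognition element of interferon-stimulated genes was searched as GAAA, any 2 bases and GAAA. It was found on either strand in 9 of the 19 windows of 16 list members (47.4%), against 3.44% of all 32851 windows. Of the 9 members with it, 3 rose. The windows of the pair with the largest rises follow, with the element in capitals, as an overlapping pair in Oas1a.
Cxcl10, chr5:92348840-92349139, minus strand: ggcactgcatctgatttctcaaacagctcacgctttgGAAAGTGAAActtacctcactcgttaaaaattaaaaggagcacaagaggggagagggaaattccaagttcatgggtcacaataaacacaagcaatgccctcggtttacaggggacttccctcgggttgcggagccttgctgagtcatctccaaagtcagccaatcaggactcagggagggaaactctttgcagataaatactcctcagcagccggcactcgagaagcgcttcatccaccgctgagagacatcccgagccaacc
Oas1a, chr5:120907476-120907775, minus strand: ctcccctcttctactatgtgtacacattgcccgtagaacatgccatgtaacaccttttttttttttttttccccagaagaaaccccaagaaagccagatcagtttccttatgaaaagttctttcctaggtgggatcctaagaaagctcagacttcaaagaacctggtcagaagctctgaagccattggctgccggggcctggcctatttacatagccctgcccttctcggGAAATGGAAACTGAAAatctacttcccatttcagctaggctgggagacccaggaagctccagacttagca
Oas1a, which makes the activator of an RNA-cleaving enzyme, rose by 1.08. The MHC class I and immunoproteasome genes, also inducible by interferon, rose in 1 of 12 cases (median 0.01).

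Macrophage genes rose broadly, while genes of resident alveolar macrophages were split. Of 19 general macrophage markers 13 rose and none fell (median 0.75). Msr1, a scavenger receptor, read 57.7, 108.0, 90.9 and 118.2 on Day 0, and 400.8, 336.8, 369.3 and 285.0 on Day 7 (2.05 ± 0.26). The high-affinity IgG receptor Fcgr1 read 238.5, 306.5, 235.7 and 194.8 on Day 0, and 976.2, 1071.6, 758.8 and 544.1 on Day 7 (1.81 ± 0.23). Neither gene overlapped between the days. The C-type lectins Clec4n (2.20 ± 0.34) and Clec4e (1.44 ± 0.30) rose as well. Lyz2 (-0.02 ± 0.06) and Csf1r (0.13 ± 0.10), markers named after their values were seen, did not pass, and Lyz2 was very bright on both days (31891 ± 976 and 31512 ± 3801, SD, n = 4).

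Markers of lipid-handling, scar-type macrophages rose in 10 of 17 cases (median 0.43). Besides Trem2, these included Gpnmb, a glycoprotein of lipid-loaded macrophages, which read 364.8, 317.1, 308.8 and 297.3 on Day 0, and 1529.0, 1299.6, 949.5 and 1372.3 on Day 7 (2.02 ± 0.38). Macrophage elastase (Mmp12) read 150.2, 217.1, 227.9 and 417.9 on Day 0, and 1814.6, 1420.5, 1322.6 and 775.3 on Day 7 (2.47 ± 0.55). For both genes every Day 7 mouse lay above every Day 0 mouse. Lysosomal cathepsins and hydrolases rose in 13 of 17 cases (median 0.60), among them cathepsin K (Ctsk, 1.42 ± 0.23), Cd68 (1.38 ± 0.25), legumain (Lgmn, 0.92 ± 0.17) and Gusb (0.90 ± 0.12). Alternative-activation genes rose in 8 of 12 cases (median 0.81). Retnla, induced by interleukins 4 and 13, read 6277.5, 6259.8, 2947.2 and 8473.6 on Day 0, and 23449.0, 22789.6, 25579.0 and 18693.1 on Day 7 (1.89 ± 0.26). Arg1 read 78.7, 39.3, 95.4 and 277.6 on Day 0, and 873.8, 590.9, 892.4 and 434.1 on Day 7, with Day 0 mouse No.4 the highest of its day. Of 10 alveolar macrophage markers, 3 rose, including the scavenger receptor Marco (1.45 ± 0.34) and the proton pump subunit Atp6v0d2 (0.72 ± 0.17), and 2 fell, Fabp1 and Krt79 (-0.85 ± 0.19), with a median of -0.23.

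Lists of other immune cells were mixed in direction. In the list for dendritic cells with MHC class II, 6 of 17 rose and 1 fell (median 0.44), led by the actin bundler Fscn1 (1.62 ± 0.20), the integrin Itgae (1.34 ± 0.32) and the costimulator Cd86 (1.15 ± 0.23). The transcription factor Zbtb46 fell by 0.59 ± 0.16. In the T cell list 3 of 11 rose (1 without Day 0 No.4 or Day 7 No.1), of which Icos (0.82 ± 0.15) kept its call without any 1 mouse. In the NK and cytotoxic list 4 of 11 fell (median -0.40). The granule protease Gzma read 4827.5, 3917.1, 2226.4 and 2781.7 on Day 0, and 1613.3, 1991.7, 1790.2 and 1480.8 on Day 7 (-0.95 ± 0.23), with Day 0 mice No.1 and No.2 well above the rest. The NK falls numbered 2 without Day 0 No.1 or No.2. The B cell list had 1 fall in 9 and the plasma cell list 1 rise and 1 fall in 10. These counts were near the shares over all genes, 12.6% up and 10.7% down. The platelet list had 3 falls in 10 (1 without Day 0 No.2, 6 without Day 7 No.3). Of the platelet genes, the beta-tubulin Tubb1 fell by 0.77 ± 0.18.

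Of 10 neutrophil genes, 2 rose, Lcn2 and the collagenase Mmp8 (0.95 ± 0.29), and the median was -0.29. Mmp8 lost its call without Day 0 No.3 (0.72, adjusted p = 0.0863), Day 0 No.4 (0.78, adjusted p = 0.0744), Day 7 No.1 (0.86, adjusted p = 0.0669) or Day 7 No.2 (0.86, adjusted p = 0.0689). The list mean, on the log2 scale, was 10.16, 10.33, 9.21 and 9.45 on Day 0, and 9.38, 9.59, 10.30 and 9.81 on Day 7. The days overlapped, with mice No.1 and No.2 the higher pair on Day 0 and No.3 and No.4 the higher pair on Day 7. Only 2 genes each were tested in the lists for eosinophils with mast cells, erythroid cells and basal epithelium, and none passed (adjusted p of 0.05 or more in limma). At an unadjusted p under 0.05 there were 1, 2 and 0 genes in these lists. The erythroid list mean ran from 9.21 to 10.37 on Day 0 and from 7.71 to 9.24 on Day 7.

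More collagen, matricellular and protease genes of the extracellular matrix rose than fell. Of 15 interstitial collagen genes 12 rose and none fell (median 0.51), and the count was 8 without Day 7 No.1. The collagen V chain Col5a2 read 2928.2, 2343.4, 1789.7 and 2229.2 on Day 0, and 8925.1, 7338.7, 6794.8 and 4973.6 on Day 7 (1.52 ± 0.22). Col1a1, the main collagen I chain, read 1555.9, 1594.0, 1247.9 and 1564.4 on Day 0, and 3496.7, 2325.0, 3685.2 and 2666.0 on Day 7 (0.98 ± 0.25, adjusted p = 0.00621). Both were higher in every Day 7 mouse than in any Day 0 mouse, with the Day 7 values spread widely. Col5a3 rose by 1.28 ± 0.24 and Col5a1 by 1.18 ± 0.21. Of 16 genes for collagen processing 5 rose (median 0.27), and 2 did so without Day 0 No.3 and 3 without Day 0 No.2, Day 7 No.1 or Day 7 No.2. P4ha3, a prolyl hydroxylase, rose by 1.48 ± 0.29 and the crosslinking oxidase Loxl1 by 0.55 ± 0.12. Lox rose by 1.15 ± 0.34, a call lost without Day 0 No.3 (0.95, adjusted p = 0.0612), Day 7 No.1 (0.99, adjusted p = 0.0637) or Day 7 No.2 (1.08, adjusted p = 0.0506).

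Elastin (Eln) read 1475.8, 1305.6, 702.8 and 635.5 on Day 0, and 5403.3, 3841.9, 3152.5 and 2169.9 on Day 7 (1.81 ± 0.38, adjusted p = 0.00175). Thbs1, which can activate latent TGF-beta, read 1143.6, 1996.8, 1389.1 and 1585.4 on Day 0, and 4548.5, 3736.3, 4478.6 and 4015.7 on Day 7 (1.42 ± 0.23). Vcan, a large hyaluronan-binding proteoglycan, read 314.7, 269.6, 149.0 and 204.4 on Day 0, and 1086.5, 921.1, 761.0 and 502.0 on Day 7 (1.87 ± 0.26). None of the 3 overlapped, and for Eln and Vcan Day 7 mouse No.1 was the highest and No.4 the lowest of its day. In the elastic fibre list 5 of 13 rose and Ltbp4, which stores latent TGF-beta, fell by 0.95 ± 0.23 (5 rises became 3 without Day 0 No.3, Day 7 No.1 or Day 7 No.2). In the matricellular list 6 of 13 rose and 2 fell (median 0.82, and 0.436 without Day 0 No.2). Cthrc1, a marker of collagen-producing fibroblasts, rose by 1.15 ± 0.21. Thbs4 read 35.2, 8.4, 5.1 and 6.4 on Day 0, and 86.9, 80.5, 97.0 and 43.9 on Day 7. With 3 of its Day 0 values at the floor, its change of 1.48 ± 0.34 ran from 0.77 to 2.63 with other floors.

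Of 18 matrix proteases and inhibitors 10 rose and 2 fell (median 0.69). The aggrecanase Adamts4 rose by 2.44 ± 0.34 and Mmp19 by 1.34 ± 0.24. Among 13 proteoglycan and hyaluronan genes 5 rose (median 0.39), and the count was 2 without Day 0 No.1, Day 7 No.2 or Day 7 No.3 and 3 without Day 0 No.2 or Day 7 No.1. The basement membrane list was near the background, with 1 rise and 2 falls in 15 (median -0.04), the falls being laminin Lama3 (-0.51 ± 0.14) and collagen IV Col4a4 (-0.48 ± 0.13, adjusted p = 0.117 under a common array median). Of 13 coagulation and fibrinolysis genes 8 rose and 1 fell (median 0.54). The protease inhibitor Tfpi2 read 171.8, 200.9, 191.0 and 167.6 on Day 0, and 709.2, 764.1, 435.7 and 451.7 on Day 7 (1.73 ± 0.23). Clotting factors F10 and F7 rose by 1.08 ± 0.16 and 0.82 ± 0.14. Thrombomodulin (Thbd), the endothelial anticoagulant, fell by 0.50 ± 0.10, a call lost under a common array median (-0.32, adjusted p = 0.168).

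Signalling genes of fibrosis were mixed. In the TGF-beta and activin list 8 of 19 rose and 4 fell (median 0.36), and 5 rose without Day 7 No.2. The TGF-beta targets Tgfbi (1.14 ± 0.15) and Pmepa1 (0.78 ± 0.15) and the activin antagonist Fst (1.98 ± 0.38) rose, and Smad6, an inhibitor of BMP signalling, fell by 0.80 ± 0.15. Tgfb1 itself, named after its values were seen, changed by 0.02 ± 0.14 and did not pass. In the IGF and Wnt list 5 of 18 rose and 4 fell, with 2 rises without Day 7 No.1 and 3 without Day 0 No.2 or Day 7 No.2. Igf1, a growth factor made by macrophages and fibroblasts, read 807.1, 646.6, 750.8 and 968.4 on Day 0, and 3002.4, 2090.3, 1955.2 and 1327.2 on Day 7 (1.35 ± 0.24). The Wnt antagonist Sfrp1 rose by 1.68 ± 0.23. Among EGF-receptor, FGF and PDGF ligands 4 of 16 rose and 1 fell. Epiregulin (Ereg) read 16.2, 45.1, 25.8 and 44.4 on Day 0, and 202.0, 206.9, 217.2 and 162.1 on Day 7 (2.67 ± 0.37), Nrg1 and Pdgfc rose by 1.22 ± 0.23 and 1.42 ± 0.35, and Fgf1 fell by 0.65 ± 0.12. Smooth-muscle contractile genes did not move as a list, with 1 rise and 1 fall in 12 (median 0.03). Acta2, the marker of myofibroblasts, changed by 0.03 ± 0.13.

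**Figure D2:**
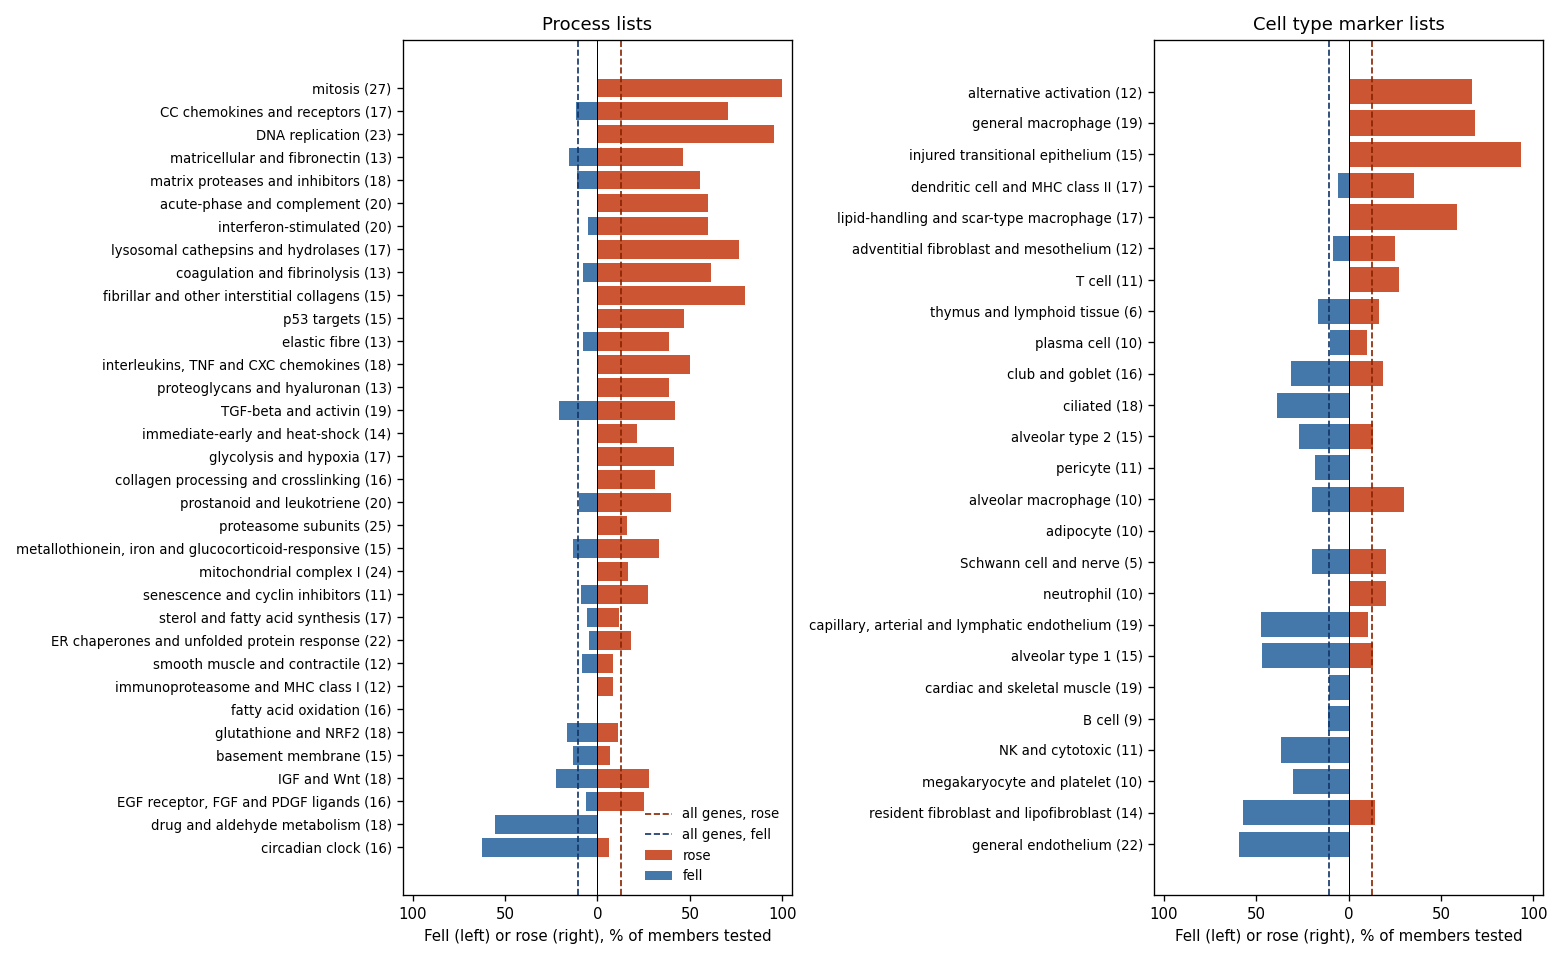
Share of the tested members of each list that rose (right, orange) or fell (left, blue) in FP-KO lung, Day 7 against Day 0, for process lists and marker lists with at least 5 tested members, ordered by median change, with the number tested in brackets. Dashed lines give the shares over all genes, 12.6% upward and 10.7% downward. Mitosis stands at the top with 27 of 27 up, and general endothelium at the foot of the marker lists with 13 of 22 down.

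Among genes of the prostanoid pathway, several enzymes of synthesis and the prostaglandin E receptor genes Ptger4 and Ptger3 (0.72) rose. The prostacyclin synthase Ptgis (-0.26) and the receptor genes Ptger2 (0.52), Ptgir (-0.004) and Tbxa2r (-0.32) did not pass. Of 20 prostanoid and leukotriene genes 8 rose and 2 fell (median 0.20). Ptger4, a receptor for prostaglandin E2, read 920.0, 742.9, 776.8 and 686.0 on Day 0, and 1946.1, 1746.8, 1949.8 and 1514.3 on Day 7 (1.20 ± 0.15, adjusted p = 1.23e-05). The inducible cyclooxygenase Ptgs2 read 444.7, 413.6, 480.5 and 350.7 on Day 0, and 718.3, 813.3, 651.1 and 640.4 on Day 7 (0.79 ± 0.13). The days did not overlap for either gene. The prostaglandin E synthase Ptges rose by 1.00 ± 0.18 and the thromboxane synthase Tbxas1 by 0.89 ± 0.19. Hpgd, which degrades prostaglandins, fell by 0.40 ± 0.12, a call lost under a common array median (-0.24, adjusted p = 0.298) and without Day 7 No.1 (-0.35, adjusted p = 0.0642).

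Genes of injured epithelium rose and several markers of mature epithelium fell by smaller amounts. Of 15 genes that mark its transitional state 14 rose (median 0.68), and the count was 9 without Day 7 No.2. The epithelial checkpoint protein stratifin (Sfn) read 68.6, 60.7, 56.2 and 25.9 on Day 0, and 283.6, 317.9, 150.8 and 123.1 on Day 7 (2.12 ± 0.41). The tight-junction protein Cldn4 read 161.1, 168.7, 135.6 and 147.4 on Day 0, and 676.8, 661.6, 414.7 and 303.8 on Day 7 (1.76 ± 0.37). In both, Day 7 mice No.1 and No.2 were above No.3 and No.4, and no Day 7 mouse overlapped Day 0. Of its rising members Lgals3 and Ctsh also stand in the macrophage or lysosome lists, Cdkn1a in the p53 list and Plaur in the coagulation list, and macrophage markers rose in the same mice. The part of macrophages in this list was not tested.

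Alveolar type 1 markers fell in 7 of 15 cases and rose in 2 (median -0.32), and type 2 markers fell in 4 of 15 and rose in 2 (median -0.19). Under a common array median none of either list fell. The type 1 chloride channel protein Clic5 read 8678.4, 9323.0, 8045.1 and 7482.5 on Day 0, and 6425.2, 7292.1, 6290.0 and 6829.6 on Day 7 (-0.40 ± 0.09), which did not pass under a common array median (-0.22, adjusted p = 0.297). Cathepsin H (Ctsh), a surfactant-processing protease that macrophages also express, rose by 0.68 ± 0.14. Type 1 falls numbered 3 without Day 7 No.1. Type 2 falls numbered 0 without Day 0 No.1, Day 7 No.1 or Day 7 No.2, and 1 without Day 0 No.2. Club and goblet genes were split, 3 up and 5 down of 16, with 2 down without Day 7 No.1, 3 without Day 0 No.1 and none under a common array median. Ciliated cell genes fell in 7 of 18 cases, in 2 under a common array median, and in 1 to 5 when any mouse but Day 7 No.4 was left out (1 without Day 7 No.2). The ciliary tubulin-binding protein Tppp3 read 6068.0, 6414.1, 7127.2 and 7716.8 on Day 0, and 3059.0, 3468.9, 4211.7 and 4661.0 on Day 7, and fell by 0.89 ± 0.16 (-0.74, adjusted p = 0.00111, under a common array median).

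Endothelial genes fell broadly. Of 22 general endothelial markers 13 fell and none rose (median -0.50), beside 10.7% of all genes, and 10 still fell under a common array median. In whole-lung RNA fewer cells of a type and less RNA per cell cannot be told apart. Tek, the angiopoietin receptor, read 5693.2, 5719.7, 5449.1 and 5344.8 on Day 0, and 3133.7, 3046.5, 3304.0 and 4005.1 on Day 7 (-0.78 ± 0.11, adjusted p = 4.87e-05). Kdr, the main VEGF receptor, read 3247.4, 2521.9, 3068.4 and 3387.0 on Day 0, and 1706.0, 1176.3, 2088.0 and 1840.7 on Day 7 (-0.86 ± 0.19). All Day 7 mice lay below all Day 0 mice, and for Tek mouse No.4 was the nearest to Day 0. Tie1 fell by 0.81 ± 0.21 and the endothelin receptor Ednrb by 0.74 ± 0.16.

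Among capillary, arterial and lymphatic genes 9 of 19 fell and 2 rose, but 3 fell under a common array median and 5 without Day 7 No.3. The Notch target Hey1, an arterial gene, fell by 0.82 ± 0.14 and the arterial ephrin Efnb2 by 0.60 ± 0.13. Ackr1, the chemokine receptor of venules, went the other way: it read 106.7, 109.5, 117.9 and 96.9 on Day 0, and 386.4, 415.8, 281.5 and 240.8 on Day 7 (1.69 ± 0.27). Resident fibroblast and lipofibroblast genes fell in 8 of 14 cases and rose in 2 (median -0.49), with 4 falls under a common array median. The integrin chain Itga8 read 10540.8, 10065.0, 10646.7 and 10130.0 on Day 0, and 6193.6, 5954.5, 6318.8 and 8421.1 on Day 7 (-0.71 ± 0.10), and the secreted protein Scube2 fell by 0.70 ± 0.16. For Itga8, Day 7 mouse No.4 lay between the other Day 7 mice and Day 0. In the adventitial and mesothelial list 3 of 12 rose and 1 fell, Col14a1 rising by 0.45 ± 0.11, and in the pericyte list 2 of 11 fell.

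Genes of drug metabolism and the clock also fell. Of 18 drug and aldehyde metabolism genes 10 fell and none rose (median -0.51), with 4 falls under a common array median. Aldehyde oxidase Aox3 read 4153.9, 3766.1, 4462.4 and 4289.8 on Day 0, and 1359.1, 1583.2, 2036.1 and 2446.7 on Day 7 (-1.22 ± 0.24). The lung cytochrome Cyp4b1 read 16502.2, 17278.3, 17730.6 and 17184.7 on Day 0, and 7017.8, 8810.4, 11323.0 and 13379.0 on Day 7 (-0.88 ± 0.17). Fmo1, a flavin monooxygenase, fell by 0.97 ± 0.17. For Aox3 and Cyp4b1 all Day 7 mice lay below Day 0, with No.1 the lowest and No.4 the nearest to Day 0. Of 18 glutathione and NRF2 genes 2 rose and 3 fell (1 fell without Day 0 No.1, No.3 or No.4, or Day 7 No.1 or No.2), with haem oxygenase (Hmox1) up by 1.00 ± 0.19 and glutathione transferase Gstm1 down by 0.89 ± 0.21.

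Of 16 clock genes 10 fell and 1 rose (median -0.60), and 8 fell under a common array median. Nr1d1, a repressor in the clock loop, read 1136.2, 1188.6, 951.0 and 1138.6 on Day 0, and 382.0, 337.4, 476.6 and 828.9 on Day 7 (-1.16 ± 0.26). Hlf, a clock output factor, fell by 0.93 ± 0.20, and Bhlhe40, a clock repressor, rose by 0.59 ± 0.10. The clock falls numbered 6 without Day 0 No.3, Day 7 No.1 or Day 7 No.2. The labels do not state the hour at which the lungs were taken, and its part in these values was not tested.

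Metabolic and protein-handling lists differed in their counts, beside 12.6% of all genes that rose and 10.7% that fell. None of 16 fatty acid oxidation genes passed at an adjusted p under 0.05 in limma (median -0.004), and 5 had an unadjusted p under 0.05. Glycolysis and hypoxia genes rose in 7 of 17 cases, including Pgk1 (0.63 ± 0.15) and Pgam1 (0.54 ± 0.08). Sterol synthesis had 2 rises and 1 fall in 17, complex I 4 rises in 24 (0 to 7 without 1 mouse, 0 without Day 7 No.1 or No.2), and the proteasome 4 rises in 25 (1 without Day 7 No.2). All 25 proteasome changes were above 0 (median 0.20), 12 had an unadjusted p under 0.05 in limma, 11 did not overlap between the days, beside 26.5% of all genes, and 9 rose without quantile normalization. Of these subunits Psmb3 (0.44 ± 0.12) kept its call without any 1 mouse. Of 22 endoplasmic reticulum chaperone genes 4 rose and 1 fell (median 0.05). The stress element of this list, searched as CCAAT, any 9 bases and CCACG on both strands, was found in 7 of the 20 windows of that list (35.0%), against 0.12% of all windows, and none of the 7 genes with it rose. Senescence and cyclin-inhibitor genes had 3 rises and 1 fall in 11, with the stress gene Gadd45g up by 1.30 ± 0.23 and lamin B1 (Lmnb1), which is lost in senescent cells, up by 0.78 ± 0.17.

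Markers of tissues next to the lung were checked, since dissection can bring them along. None of the 10 adipocyte genes tested (15 listed) passed in limma, 1 had an unadjusted p under 0.05, and their list mean ran from 8.81 to 9.48 on Day 0 and from 8.29 to 9.44 on Day 7 on the log2 scale. Of 19 cardiac and skeletal muscle genes 2 fell, near the 10.7% of all genes. They were titin (Ttn, -0.65 ± 0.21) and troponin C (Tnnc1, -0.52 ± 0.18). The list mean ran from 9.52 to 10.17 on Day 0 and from 9.36 to 9.80 on Day 7. Ttn lost its call without Day 0 No.1 (adjusted p = 0.0977), No.2 (0.0702) or No.4 (0.0675), or Day 7 No.1 (0.05002) or No.2 (0.140), and Tnnc1 without any mouse but Day 0 No.3 or No.4 (adjusted p up to 0.160, without Day 0 No.1). The nerve and thymus lists had 1 rise and 1 fall each. Their part in the other results was not tested.

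The 4 Day 7 mice did not respond to the same degree. On the first principal component of all genes (42.0% of the variance over 25 arrays) the Day 0 mice lay at -24.8 or below, and the Day 7 mice at 25, 24.4, 12.3 and 2.56 for No.1 to No.4. Set against the mean WT change over the same 12062 genes, each mouse's change had a slope of 0.837, 0.805, 0.636 and 0.486, with Pearson correlations across genes of 0.859, 0.789, 0.775 and 0.728, given as a description. Mice No.3 and No.4 thus stood nearer to Day 0. The WT Day 7 mice No.1 to No.4 lay at 29.9, 33.9, 17.6 and 22.4, so No.3 and No.4 were the lower pair there too. In the same order the actin 3' to 5' ratio was 1.26, 1.18, 1.35 and 1.35 on FP-KO Day 7. On WT Day 7 it was 1.23, 1.23, 1.28 and 1.32. Its part in this order was not tested. The mean log2 level of the 27 mitosis genes was 7.79, 7.57, 6.95 and 7.16 on Day 0, and 9.38, 9.42, 8.87 and 8.48 on Day 7. For endothelium the list mean was 11.83, 11.94, 11.81 and 11.85 on Day 0, and 11.30, 11.27, 11.43 and 11.59 on Day 7. The acute-phase list did not follow this order, with 10.95, 10.97, 11.03 and 10.95 on Day 7 against 9.995, 10.06, 9.83 and 9.99 on Day 0. The median standard deviation of a gene was 0.170 in the Day 7 group and 0.156 in the Day 0 group. Without both No.3 and No.4, the mice nearest to Day 0, 124 genes fell by at least 1, in place of 38.

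**Figure D3:**
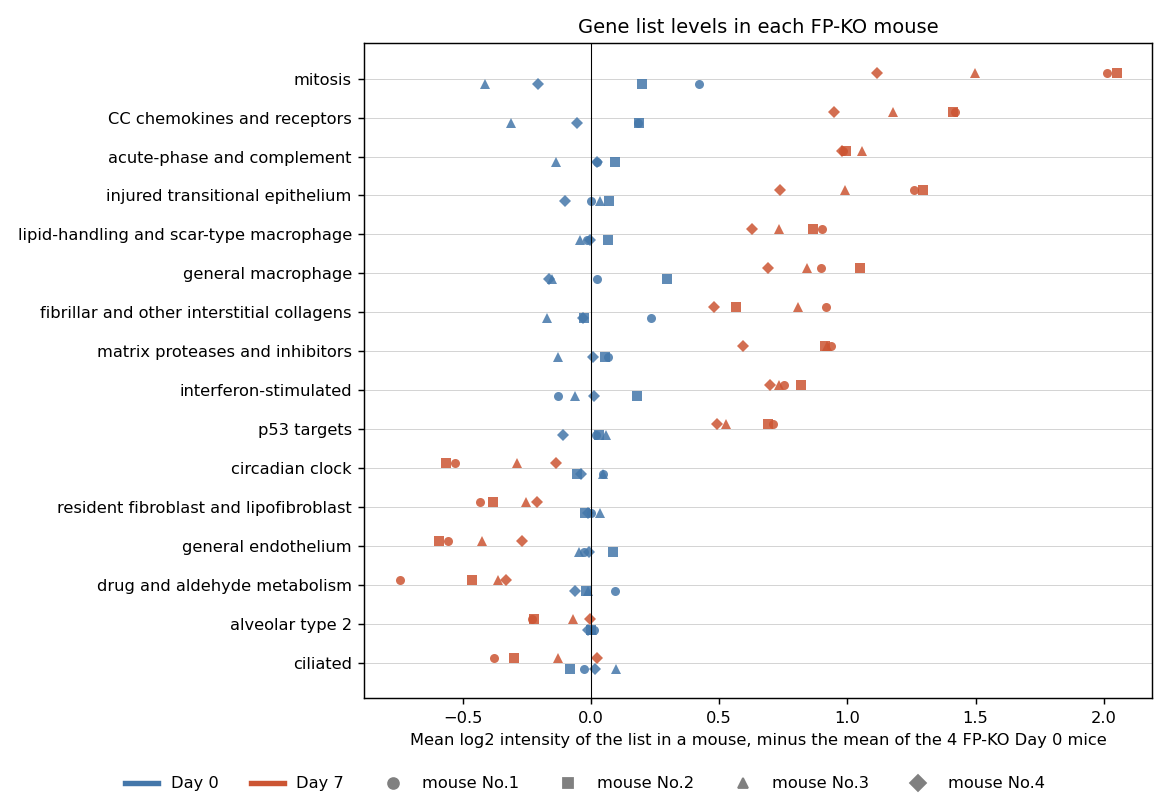
Mean log2 intensity of 16 gene lists in each FP-KO mouse, as a difference from the mean of the 4 Day 0 mice (blue Day 0, orange Day 7, symbols for mouse numbers). Day 7 mice No.3 and No.4 lie nearer to Day 0 than No.1 and No.2 for mitosis and endothelium, while for acute-phase genes the 4 Day 7 mice lie close together.

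Against the WT time course, the FP-KO changes from Day 0 kept their direction and were somewhat smaller in size. Over all genes the median absolute change was 0.21 in FP-KO and 0.25 in WT lung, and the changes correlated across genes (Pearson r 0.874, Spearman rho 0.803, n = 12062 genes, given as a description). Of the 2814 genes changed in FP-KO lung 2782 (98.86%) had a WT change of the same sign, and 60.16% had a smaller change in FP-KO than in WT. The FP-KO and WT contrasts share no arrays. The test that bears on a difference between genotypes, (FP-KO Day 7 minus Day 0) minus (WT Day 7 minus Day 0), called 0 genes in limma at an adjusted p under 0.05. At an unadjusted p under 0.05 there were 765 genes (6.34%), and the smallest adjusted p was 0.111. With 4 mice in each group, this does not show that the genotypes respond alike.

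For interstitial collagens the median change was 0.51 in FP-KO and 1.01 in WT lung, and 14 of 15 genes changed less in FP-KO, in absolute size. For CC chemokines it was 1.20 and 1.82, for mitosis 1.78 and 2.11, for matrix proteases 0.69 and 1.13, and for general macrophage markers 0.75 and 1.12. For alternative activation it was 0.81 and 0.79, for endothelium -0.50 and -0.43, and for the clock -0.60 and -0.58. The members that changed less in FP-KO numbered 14 of 17 for CC chemokines and 23 of 27 for mitosis. They numbered 13 of 18 for matrix proteases, 17 of 19 for macrophage markers and 9 of 12 for alternative activation. For endothelium they numbered 13 of 22 and for the clock 13 of 16. Among genes changed in FP-KO lung, a set picked by the FP-KO change, the share was 60.16%. The share over all genes is not given here, so the list counts cannot be read as traits of the lists. Without both Day 7 mice No.3 and No.4, a setting chosen after seeing the data, the FP-KO medians were 0.66 for collagens, 1.45 for CC chemokines, 2.09 for mitosis, 0.68 for matrix proteases, 0.91 for macrophage markers, 1.11 for alternative activation, -0.57 for endothelium and -0.84 for the clock. These 2 mice lay nearest to Day 0, so leaving them out tends to enlarge the FP-KO changes. All 4 WT Day 7 mice were kept, although WT No.3 and No.4 were also the lower pair on the first principal component. The FP-KO medians of this setting thus cannot be set against the WT medians of the lists. No member of these lists passed the test of the difference. A smaller change can come from the level on either day, and which day was not tested. The mitosis list mean (log2) ran from 6.953 to 7.786 in FP-KO and 7.002 to 7.175 in WT lung on Day 0. On Day 7 it ran from 8.48 to 9.416 and 9.035 to 9.29. For interstitial collagens it ran from 9.978 to 10.382 and 9.896 to 10.094 on Day 0. On Day 7 it ran from 10.63 to 11.065 and 11.03 to 11.249. The genotypes overlapped in each case. Col1a1 changed by 0.98 ± 0.25 and 2.26 ± 0.25, Eln by 1.81 ± 0.38 and 3.16 ± 0.38, and Fabp1 by -1.36 ± 0.39 and -2.59 ± 0.39, each with an adjusted p of 0.772 for the difference. The other probe set of Fabp1 read -1.17 in FP-KO and -3.28 in WT lung. In WT lung the adipocyte median was -1.17 and the cardiac and skeletal muscle median -0.91, against -0.24 and -0.37 in FP-KO lung, and no gene of these lists passed the test of the difference. The part of tissue carried along was not tested.

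The 5 genes with the smallest p for the difference were Ifi44l, Fgfbp1, Ccn2, Wdr4 and Dnah8. Ifi44l, an interferon-induced gene, read 193.0, 203.9, 211.8 and 253.6 on FP-KO Day 0, and 392.4, 445.1, 375.1 and 439.6 on FP-KO Day 7. Its group mean rose in FP-KO lung by 1.03 ± 0.11 (adjusted p = 2.88e-06 in limma), against 0.14 ± 0.11 in WT lung, a difference of 0.89 (adjusted p = 0.111). The difference passed with a floor at the 30th percentile (adjusted p = 0.00118), without FP-KO Day 0 No.4 (0.0494) and without WT Day 7 No.3 (0.0323), and in no other setting tried. Its other probe sets read differences of 1.03 and 0.13. The probe set that read 0.13 had FP-KO mean signals of 9.025 on Day 0 and 22.75 on Day 7. Both lie under the intensity floor of 24.3, which limits the difference it can show. In the RefSeq gene order (GRCm38.p6) Ifi44l is the nearest protein-coding neighbour of Ptgfr on one side, on chromosome 3, so it lies beside the targeted locus. The neighbour on the other side, Gipc2, had changes of -0.19 in FP-KO and -0.40 in WT lung.

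For the other 4 genes the adjusted p of the difference was 0.599. Ccn2, a matricellular protein induced by TGF-beta, read 8654.1, 9290.8, 8164.3 and 6570.2 on FP-KO Day 0, and 9142.4, 9904.6, 9238.8 and 9297.1 on Day 7, which overlap. Its change was 0.11 ± 0.14 in FP-KO and 0.98 ± 0.14 in WT lung. Fgfbp1, which releases FGFs from matrix, changed by -0.38 ± 0.16 and -1.39 ± 0.16. The axonemal dynein Dnah8 changed by -0.23 ± 0.19 and -1.39 ± 0.19, and Wdr4, a subunit of a tRNA methyltransferase, by 0.22 ± 0.08 and 0.74 ± 0.08. In each of these 4 the FP-KO change was the smaller. The other probe set of Dnah8 read a difference of 0.07, against 1.16 for the one used. Those of Wdr4 read differences of -0.12, -0.60 and -0.04, against -0.52. The other Dnah8 probe set had FP-KO mean signals of 29.9 on Day 0 and 19.05 on Day 7, around the intensity floor of 24.3. The Wdr4 probe set that read -0.04 had 7.975 and 14.1, under the floor. Such dim signals limit the difference that these probe sets can show.

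**Figure D4:**
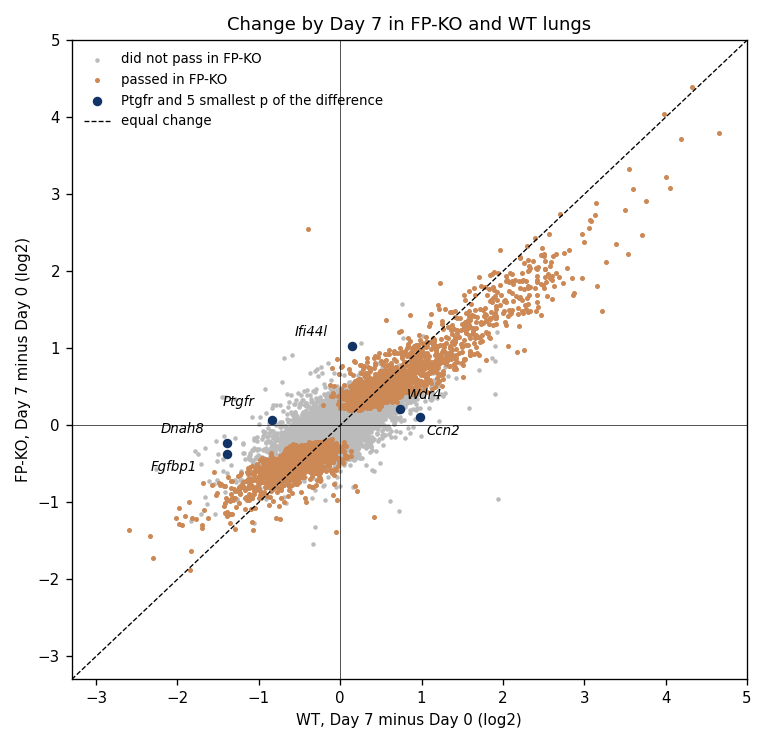
Log2 change from Day 0 to Day 7 of 12062 genes in WT (horizontal axis) and FP-KO lung (vertical axis), with genes that passed in FP-KO in orange and a dashed line of equal change. Ptgfr and the 5 genes with the smallest p for the difference are marked, and Ifi44l stands above the line at 0.14 in WT and 1.03 in FP-KO lung.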

How the data were processed

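Total RNA of mouse lungs was measured on Affymetrix mouse expression arrays, 1 array per mouse and 25 in all. The authors deposited linear intensity values for 45101 probe sets, and the values show that each array was scaled to a trimmed mean of 500 with 2% left out at each end. Neither labels nor headers used here name the scaling software. No value column was left unused.

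Intensities were raised to a floor of 24.3, the 20th percentile over all arrays, taken to log2 and quantile-normalized, since the array medians spanned 0.432 on the log2 scale. Probe sets with 1 gene symbol in the platform annotation (34945) were kept, with the brightest per gene by mean level, 932 with several symbols and 9160 without one being left out. Of 18193 genes, the 12062 that exceeded their array's median on 4 or more arrays were tested. Apart from the choice of the brightest per gene, levels of different probe sets were not compared. The number of arrays, 4 in each group compared, limits the precision.

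A model with 6 groups over all 25 arrays was fitted in limma 3.58.1 (R 4.3.3) and tested on simulated data. The threshold was 0.05 after Benjamini-Hochberg adjustment. Named genes were Ptgfr, the 12 largest rises and 12 largest falls without overlap, for each list up to 4 passing members with the largest change plus the largest in the less frequent direction, and the 5 smallest p of the difference between genotypes. Genes with clone-type symbols kept their place and are not described. Members that did not pass, tissue checks, promoter examples, neighbours of Ptgfr, Ccl5 and Ptger3 were named after their values were seen. The genes and lists were chosen with earlier results of these data known. Lists are described by counts and medians.

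Whether mouse numbers pair the samples was checked by the correlation of deviations from the group means. Between FP-KO Day 0 and Day 7 mice of the same number it was 0.069 to 0.125, and they were not treated as pairs. Between FP-KO and WT mice of 1 day it lay between 0.119 and 0.345 for Day 0 and between 0.141 and 0.221 for Day 7. A fit with the number as a block within each day was added after seeing the data. Promoter windows were from RefSeq (GRCm38.p6), searched on both strands. Alternatives were other scalings, floors, filters, probe-set rules, variance models, blocks and leaving out mice.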

Additional observations from a re-analysis of the deposited data

Results flagged for a closer look

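In 21 of 568 groups of 4 mice checked, over the named genes and list means, 1 mouse stood apart from the other 3 by Dixon's test (critical value 0.829), which by chance marks about 1 group in 20. Values are normalized log2 signals. On Day 0, Cxcl9 was highest in No.2 at 7.29 (others 4.82 to 5.05), Tek highest in No.2 at 12.52, Loxl1 highest in No.1 at 11.52 and Psmb5 highest in No.4 at 11.42. Thbs4 was highest in No.1 at 5.22, but the other 3 values were set to the intensity floor of 24.3, so that it stood apart through the floor. Day 0 mouse No.3 stood apart for 6 genes: it was lowest for Col1a1 at 10.29 (others 10.6 to 10.65) and Nr1d1 at 9.89, and highest for F7 at 9.34, Gsta3 at 12.32, Hydin at 8.65 and Gucy1a1 at 13.21.

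On Day 7, mouse No.4 was lowest for Timp1 at 11.12 (others 12 to 12.16), Thbs4 at 5.41, F7 at 9.66, Nrg1 at 6.89 and Mx1 at 7.43, and for the mean of the matrix protease list at 9.37 (others 9.69 to 9.71). Mouse No.1 was lowest for Tnfaip6 at 6.11 and Hpgd at 13.52, and No.3 for Col4a4 at 10.77 and Dpt at 12.19.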

How the results depend on the processing

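Of the 12062 genes, 2814 changed in FP-KO lung. When every probe set was tested on its own, 4233 of 24829 probe sets changed. These were 2289 up and 1944 down, with 529 up and 87 down by at least 1. Genes and probe sets are unlike units, so the 2 totals do not show a gain. Setting the arrays to a common median left 599 falls, a pseudocount of 32 left 24 falls of at least 1, and leaving out both Day 7 No.3 and No.4, chosen after seeing the data, gave 124. With 1 FP-KO or WT mouse left out at a time, the total ran from 1861 to 3135, the rises from 1008 to 1745, the falls from 801 to 1390, the rises of at least 1 from 278 to 389, the falls of at least 1 from 30 to 74, and the genes past the test of the genotype difference from 0 to 1. Of the 2814 genes, 1829 remained without Day 7 No.1 and 1827 without Day 7 No.2. The floor at the 30th percentile also gave 1 gene for the difference, Ifi44l. The cause of these shifts was not tested.

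With the mouse number as a replicate block over the groups compared, 2124 genes changed, 1228 up and 896 down, and 0 passed for the difference. With the block within each day, 3656 changed and 0 passed for the difference (1377 at an unadjusted p under 0.05 in limma, smallest adjusted p 0.109). Between FP-KO Day 0 and Day 7, 1 of 4 Day 0 and 2 of 4 Day 7 mice correlated best with their own number.

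Ptgfr changed sign to -0.035 as deposited, -0.152 with the floor at the 30th percentile, -0.27 over the mean of its probe sets, and ran from -0.075 (without Day 0 No.4) and -0.069 (without Day 0 No.2) to 0.241 (without Day 0 No.1) with 1 mouse left out. Mbp turned to 0.012 over the mean of its probe sets. Without a filter on dim genes the list medians of EGF receptor, FGF and PDGF ligands and of Schwann cells turned to 0.065 and 0.135. Of 217 named genes that passed, 147 did so in each of the 8 fits without 1 FP-KO mouse. With only the arrays of the groups compared in the fit, 25 of the 222 named genes lost their call. Signals near the floor, as for Trem2 and Thbs4, limit the size of a change.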

Other observations

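Further genes were picked for the size of their change among those in no list, after their values were seen. The orphan receptor gene Gpr176 rose by 2.65 ± 0.40, the lectin gene Chodl by 2.56 ± 0.24, the laminin chain Lama1 by 2.38 ± 0.27 and the hyaluronan-degrading Cemip by 2.22 ± 0.32 in FP-KO lung by Day 7 (log2 ± SE, n = 4 against 4). Cemip changed by 3.54 in WT lung. Prickle1, a planar polarity gene, fell by 1.17 ± 0.11 and the bone morphogenetic protein Bmp6 by 1.06 ± 0.19.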
